A study of Mus musculus with 13 samples.

Results

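Gene expression in 4T1 mammary tumours was compared between Nlrx1-/- and wild-type (WT) mice, over all 3 of the tumour lines injected. Every array whose title carried KO was set against every array whose title carried WT, with the tumour line as a covariate. That gave 6 Nlrx1-/- and 6 WT arrays, all 12 tumour arrays of the series. The label of 1 of them, the first replicate of parental tumours in Nlrx1-/- hosts, carried the array service's advice to leave it out. The fitted values below therefore rest on 5 Nlrx1-/- and 6 WT arrays, and those over all 12 arrays are given beside them.

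The hosts were BALB/c mice, either WT or Nlrx1-/-, with no treatment, and the sources used here state no age. Each received cells in a single mammary fat pad, and the grown tumours were flash frozen for RNA extraction. The cells were parental, untransduced 4T1, a line transduced to overexpress NLRX1 (4T1OE), or its transduced control (4T1OE-CTL), with 2 arrays for each host and line. 4T1 is a mouse mammary carcinoma line that grows and spreads in immunocompetent BALB/c mice. Each array was hybridised with pooled RNA, so an array measures a pool of tumours whose number the sources used here do not state. P-values accordingly measure the spread between pools.

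NLRX1 is a member of the NOD-like receptor family that resides at mitochondria and is known as a regulator of MAVS and NF-kB signalling, of reactive oxygen species and of autophagy. A 4T1 tumour holds carcinoma cells together with host leukocytes, fibroblasts and vessels, and only the host cells lack the gene in an Nlrx1-/- mouse. In bulk RNA, fewer cells of a type and less RNA per cell cannot be told apart. The keratin genes Krt8 and Krt18, which mark the carcinoma cells, lay above the negative control median on every fitted array, with Krt8 between 13.41 and 15.45. All values are log2 expression values as deposited, and each difference is Nlrx1-/- minus WT.

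Nlrx1 itself did not separate the hosts. In parental tumours it was 6.13 and 7.13 in WT hosts and 6.60 in the fitted Nlrx1-/- array, against 6.75 in the array left out. In 4T1OE-CTL tumours it was 7.06 and 6.93 in WT and 6.39 and 5.99 in Nlrx1-/- hosts. In 4T1OE tumours it was 9.9997 and 9.31 in WT and 9.93 and 10.67 in Nlrx1-/- hosts. The Nlrx1-/- arrays were thus below both WT arrays in 4T1OE-CTL tumours alone, and the groups overlapped in the other lines. The difference averaged over lines was -0.06 (exact two-sided permutation of host labels within lines, p = 0.833, with 0.00926 the smallest p that its 108 splits can give) and -0.04 with all 12 arrays (p = 0.935). The injected cells carry their own Nlrx1, so this level cannot check the host labels.

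No feature passed the test between hosts. Of 22206 features tested, 0 had an adjusted p under 0.05 (0% of features, limma with Benjamini-Hochberg adjustment), and the smallest adjusted p was 0.9999. At an unadjusted p under 0.05 there were 955 features (4.3%), below the 5% that this threshold gives by itself. Of these, 596 (2.68% of all features) were lower and 359 (1.62%) higher in Nlrx1-/- hosts. With all 12 arrays 0 features were called again, the smallest adjusted p was 0.8496, and 739 features (3.33%) were lower and 418 (1.88%) higher at an unadjusted p under 0.05. The median difference over all features was 0.0036 with a median SE of 0.209, 94.6% of features lay within 0.5 of 0, and 0.851% differed by more than 1. The values given below are therefore differences that failed the adjusted threshold. Their 95% intervals are not adjusted for the number of features, and for genes chosen by p they leave out 0 through that choice.

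**Figure D1:**
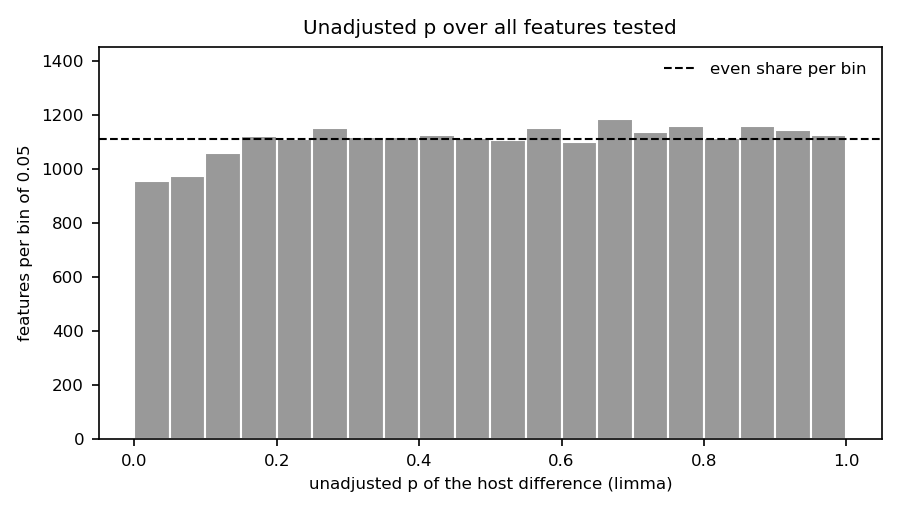
Number of features per bin of 0.05 of the unadjusted p of the host difference over 22206 features (limma, 11 arrays). The bin nearest 0 holds 955 features, under the even share of 1110.3 drawn as a dashed line.

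Array quality differed between pools. Array medians ran from 5.89 to 6.25 and standard deviations within an array from 2.53 to 3.12, lowest on the array left out. Among the fitted arrays 4 had a standard deviation under 3, namely the first WT replicates of the parental and 4T1OE-CTL lines and both Nlrx1-/- arrays of 4T1OE-CTL. Pairwise correlations between fitted arrays were 0.948 to 0.991. Lymphoid genes were high on 2 fitted Nlrx1-/- arrays, the first replicates of 4T1OE and 4T1OE-CTL. Skeletal muscle genes were high on the first WT replicates of 4T1OE and 4T1OE-CTL and on the second Nlrx1-/- replicate of 4T1OE-CTL. Values without these arrays stand beside many of the results they touch.

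Among genes above the median level with an unadjusted p under 0.01, 125 were lower and 14 higher in Nlrx1-/- hosts. Over all features, dim ones included, 2.68% were lower and 1.62% higher at the looser unadjusted p under 0.05. Threshold and features both differ, so these shares are not a like background for the 125 and 14 genes. The 10 lowest of those 139 genes included the metalloproteinases Mmp9 and Mmp13, the adhesion gene Cdh1 and the metallothionein Mt2. The 10 highest included Selenop. They were taken for their size and p in this same comparison, so those p-values describe the choice and add no support to it. Of the 10 lower genes 9 had a difference below 0 in all 3 lines, and of the 10 higher genes all 10 had one above 0.

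Mmp9 encodes gelatinase B, a secreted protease of neutrophils, macrophages and tumour cells that cleaves type IV collagen. In WT hosts it was 9.87 and 9.90 in parental, 9.54 and 9.90 in 4T1OE, and 10.17 and 7.83 in 4T1OE-CTL tumours. In Nlrx1-/- hosts it was 7.91 in parental, 7.22 and 7.73 in 4T1OE, and 7.32 and 8.12 in 4T1OE-CTL tumours, with 7.11 on the array left out. The 2 host groups overlapped only through the second WT replicate of 4T1OE-CTL, the single WT value under 9. The mean was 9.53 ± 0.861 (SD, n = 6) in WT and 7.66 ± 0.383 (n = 5) in Nlrx1-/- hosts. The line-adjusted difference was -1.81 (SE 0.368, 95% interval -2.62 to -1.01, unadjusted p = 0.000358, limma adjusted p = 0.9999), or 3.51-fold lower. Within lines it was -1.97 in parental, -1.28 in 4T1OE-CTL and -2.24 in 4T1OE tumours, and with all 12 arrays it was -1.97. Without the second WT replicate of 4T1OE-CTL it was -2.23 with an adjusted p of 0.00938, the only feature called between hosts over all lines under any array left out.

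Mmp13 encodes collagenase 3, which cleaves fibrillar collagen. In WT hosts it was 11.64 and 12.16 in parental, 12.61 and 14.38 in 4T1OE, and 14.87 and 12.99 in 4T1OE-CTL tumours. In Nlrx1-/- hosts it was 8.64 in parental, 10.99 and 11.76 in 4T1OE, and 10.65 and 14.45 in 4T1OE-CTL tumours, and 7.43 on the array left out. The second Nlrx1-/- replicate of 4T1OE-CTL lay within the WT range, and the other Nlrx1-/- arrays lay below both WT arrays of their line. Means were 13.10 ± 1.27 (SD, n = 6) and 11.30 ± 2.11 (n = 5). The difference was -2.12 (SE 0.639, 95% interval -3.52 to -0.73, unadjusted p = 0.00609), and -2.45 with all 12 arrays. It was -2.91 without the 3 arrays high in muscle genes (adjusted p = 0.0723) and -1.49 without the 2 Nlrx1-/- arrays high in lymphoid genes. The part of the muscle and lymphoid genes in it was not tested.

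The upstream sequence of Mmp13 is shown because this protease had the lowest difference of the 10 lower genes and its start is known for an AP-1 element, the site of Fos and Jun factors. The sequence is the 150 bases before the RefSeq start on GRCm38.p6, chr9:7272364-7272513, plus strand, from a C57BL/6J reference while the hosts were BALB/c. Capitals mark the match to TGANTCA, a motif that reads the same way on both strands.
Mmp13: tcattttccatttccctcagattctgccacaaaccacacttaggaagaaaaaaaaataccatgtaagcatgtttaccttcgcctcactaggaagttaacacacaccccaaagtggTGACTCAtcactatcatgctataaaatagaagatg
The match lay 35 bases before the start. The motif was present in 6.75% of 32851 windows of 250 bases upstream of all RefSeq starts, and in 4 of the 17 metalloproteinase and inhibitor genes with a window. The promoter of Mmp9 was not used here.

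Of 22 metalloproteinase and inhibitor genes measured, 16 had a difference below 0, where 49.3% of all features did, and the median was -0.12. Of the 22, 6 lay below the negative control median on every fitted array, so the signs of those 6 carry no weight. Only Mmp9 and Mmp13 (2 of 22) had an unadjusted p under 0.05, where 2.68% of all features were lower. Mmp12, the macrophage elastase, differed by -1.39 (SE 0.641, unadjusted p = 0.0519) and Mmp10, stromelysin 2, by -1.46 (SE 0.716, unadjusted p = 0.0649). Mmp12 was 14.20 in parental tumours of Nlrx1-/- hosts against 13.90 and 14.08 in WT, while in 4T1OE tumours it was 14.03 and 14.08 against 15.93 and 16.86. In 4T1OE-CTL tumours it was 12.75 and 17.07 in Nlrx1-/- hosts against 16.18 and 16.64 in WT, so the highest value of all fitted arrays was that of an Nlrx1-/- pool. Over all 12 arrays the list median was -0.28 and 4 members were lower at an unadjusted p under 0.05, and with each array left out in turn 2 to 5 were.

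Of 20 other matrix protease genes, 5 were lower and 0 higher at an unadjusted p under 0.05 (2.68% of all features were lower), and the median was -0.29. The count was 2 without the 4 arrays of a standard deviation under 3, and 2 without the 3 arrays high in muscle genes. Plau, the urokinase that activates plasminogen, was 11.31 to 11.78 on the 6 WT arrays with a median of 11.63. On the Nlrx1-/- arrays it was 11.38 in parental, 10.65 and 10.69 in 4T1OE and 10.74 and 10.35 in 4T1OE-CTL tumours, with 9.001 on the array left out. Every transduced-line array of Nlrx1-/- hosts lay below all WT arrays, and the parental array lay among them. The difference was -0.84 (SE 0.194, unadjusted p = 0.001). Its receptor Plaur differed by -0.71 (SE 0.275, unadjusted p = 0.0247), the collagen cross-linking oxidase Lox by -0.77 (SE 0.246, unadjusted p = 0.00876) and the proteoglycanase Adamts1 by -0.96 (SE 0.308, unadjusted p = 0.00911).

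**Figure D2:**
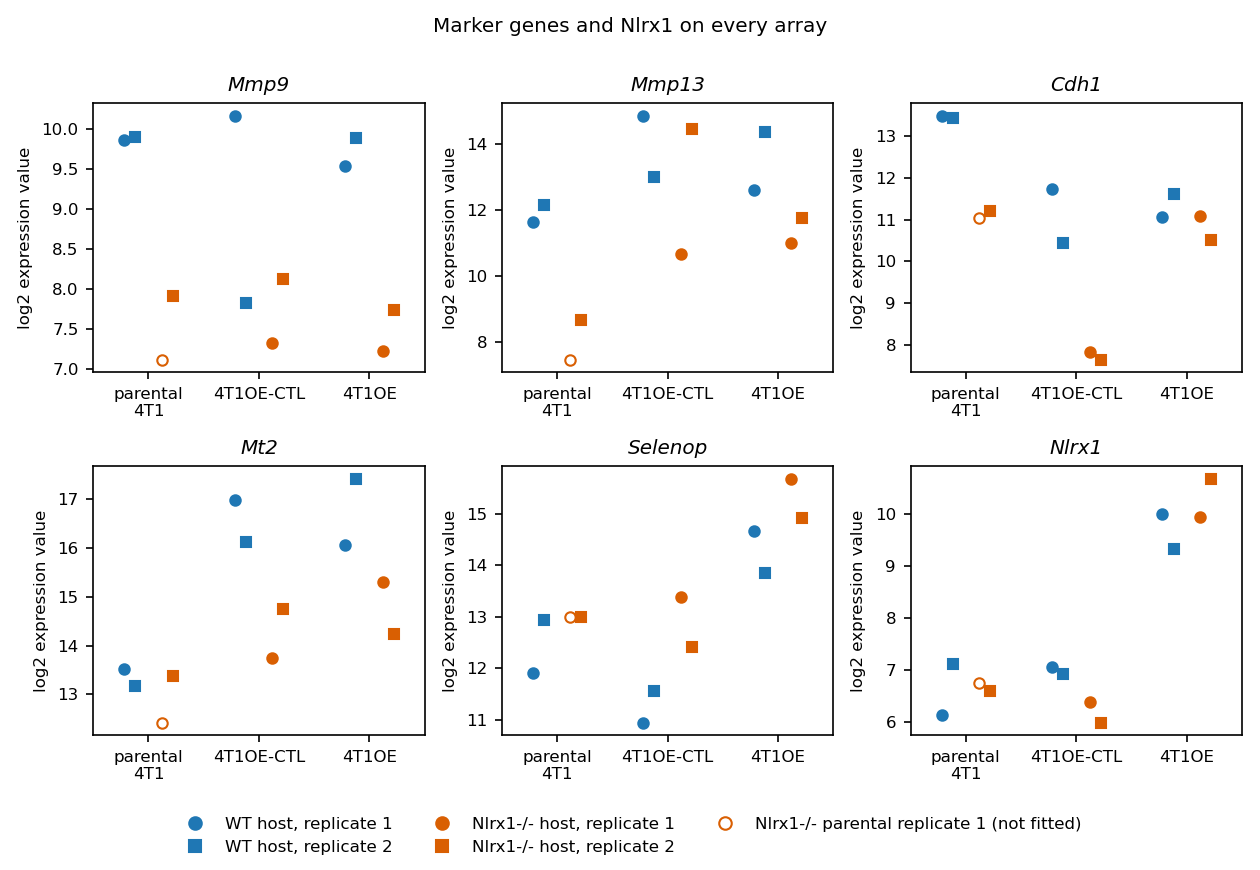
Log2 expression values of Mmp9, Mmp13, Cdh1, Mt2, Selenop and Nlrx1 on each of 12 arrays, by injected line and host. Circles are replicate 1, squares replicate 2, and the open circle is the Nlrx1-/- parental array left out of the fit. Mmp9 lies above 9 on 5 of 6 WT arrays and below 9 on all Nlrx1-/- arrays, whereas Nlrx1 follows the injected line.

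Cdh1 encodes E-cadherin, the adhesion molecule of epithelial junctions. In WT hosts it was 13.49 and 13.44 in parental, 11.06 and 11.62 in 4T1OE, and 11.73 and 10.44 in 4T1OE-CTL tumours. In Nlrx1-/- hosts it was 11.20 in parental (11.05 on the array left out), 11.09 and 10.51 in 4T1OE, and 7.82 and 7.63 in 4T1OE-CTL tumours. Hosts were apart in the parental and 4T1OE-CTL lines and overlapped in 4T1OE. Means were 11.96 ± 1.25 (SD, n = 6) and 9.65 ± 1.78 (n = 5). The difference was -2.03 (SE 0.426, 95% interval -2.96 to -1.10, unadjusted p = 0.00048, adjusted p = 0.9999). It was -2.26 in parental, -3.36 in 4T1OE-CTL and -0.54 in 4T1OE tumours (interaction, unadjusted p = 0.00269, adjusted p = 0.9989). Without the 4 arrays of a standard deviation under 3, both Nlrx1-/- arrays of 4T1OE-CTL among them, it was -1.10.

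Among 30 epithelial adhesion and identity genes, 25 had a difference below 0 (49.3% of all features did), 6 were lower (2.68% of all features) and 0 higher at an unadjusted p under 0.05. Of the 30, 2 lay below the negative control median on every fitted array. The median was -0.20, and -0.51 with all 12 arrays, but -0.02 without the 4 arrays of a standard deviation under 3. The keratin gene Krt7 differed by -1.47 (SE 0.542, unadjusted p = 0.0191), the adhesion gene Epcam by -1.19 (SE 0.403, unadjusted p = 0.012) and the membrane protease gene St14 by -1.13 (SE 0.344, unadjusted p = 0.00681). The splicing regulator Esrp1 was also among the 6, but it was below the negative control median on 5 of 11 fitted arrays, so no size is given for it. Epcam was 9.81 and 8.57 in WT against 6.94 and 7.06 in Nlrx1-/- hosts in 4T1OE-CTL tumours, and 8.32 and 8.30 against 7.77 and 9.08 in 4T1OE tumours. The list median was -0.46 in parental and -0.63 in 4T1OE-CTL tumours but 0.14 in 4T1OE tumours, where 9 of 30 members were below 0. Krt19 was below the negative control median on all 5 Nlrx1-/- arrays and on 2 WT arrays, so its difference is only a bound and no size is given for it.

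Serpinb5, which encodes maspin, an epithelial serpin, was the only one of the 10 lower genes with no overlap between hosts. It was 6.98 to 8.69 on the WT arrays with a median of 7.72. On the Nlrx1-/- arrays it was 5.65 in parental, 6.96 and 6.84 in 4T1OE, and 5.97 and 6.40 in 4T1OE-CTL tumours. The highest Nlrx1-/- value lay just below the lowest WT value, and the array left out was 6.76. The difference was -1.42 (SE 0.326, unadjusted p = 0.000952), and -0.98 without the 4 arrays of a standard deviation under 3. Such separation held for 23 lower features (0.104%) and 23 higher features (0.104%) over the 11 arrays.

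The remaining lower genes differed in which line lay furthest from 0. Tmprss11e, a membrane serine protease gene, differed by -1.59 overall (SE 0.476, unadjusted p = 0.00594), by -3.39 in 4T1OE-CTL and by -0.56 and -0.48 in parental and 4T1OE tumours. Itga2, the collagen-binding integrin alpha 2 subunit, differed by -1.53 (SE 0.397, unadjusted p = 0.00234), with -2.68 in 4T1OE-CTL tumours. Its WT values were 10.94 to 12.45 with a median of 12.10, and its Nlrx1-/- values 8.44 to 11.66 with a median of 10.57, below both WT arrays within every line. Cryab, a small heat shock protein gene, differed by -1.36 (SE 0.371, unadjusted p = 0.00338) and lay at 9.65 and 9.36 in WT against 6.83 and 6.96 in Nlrx1-/- hosts in 4T1OE-CTL tumours. Tnc, the matrix glycoprotein tenascin C, differed by -1.57 (SE 0.493, unadjusted p = 0.00784) and most in parental tumours, where it was 15.09 and 15.34 in WT and 12.57 in Nlrx1-/- hosts. Gm4841 differed by -1.91 (SE 0.379, unadjusted p = 0.000298), with 11.43 and 9.73 against 7.56 and 7.88 in 4T1OE-CTL tumours. Without the 4 arrays of a standard deviation under 3, Tmprss11e was -0.49, Cryab -0.77, Itga2 -0.97 and Gm4841 -1.21. Without the 3 arrays high in muscle genes Cryab was -0.89.

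Mt2 encodes metallothionein 2, a small protein that binds zinc and other metals. In WT hosts it was 13.51 and 13.18 in parental, 16.05 and 17.41 in 4T1OE, and 16.97 and 16.12 in 4T1OE-CTL tumours. In Nlrx1-/- hosts it was 13.38 in parental (12.41 on the array left out), 15.29 and 14.23 in 4T1OE, and 13.75 and 14.75 in 4T1OE-CTL tumours. Hosts were apart in both transduced lines, and the parental array of Nlrx1-/- hosts lay between its WT arrays. Means were 15.54 ± 1.78 (SD, n = 6) and 14.28 ± 0.765 (n = 5). The difference was -1.59 (SE 0.411, 95% interval -2.48 to -0.69, unadjusted p = 0.00228), with 0.04 in parental, -2.29 in 4T1OE-CTL and -1.97 in 4T1OE tumours (interaction, unadjusted p = 0.0545). It was -1.24 without the 4 arrays of a standard deviation under 3.

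Mt1, the neighbouring and closely related metallothionein gene, was likewise below 0 in both transduced lines and not in parental tumours. It differed by -0.77 (SE 0.292, unadjusted p = 0.0213), with 0.30 in parental, -0.99 in 4T1OE-CTL and -1.27 in 4T1OE tumours. The close likeness of the Mt1 and Mt2 transcripts means that their probes may share signal, which was not tested. Of 15 metallothionein and zinc handling genes, 3 were lower (2.68% of all features were) and 0 higher at an unadjusted p under 0.05. The median was -0.01, or -0.26 over all 12 arrays. Beside Mt1 and Mt2, the remaining lower gene was the zinc importer gene Slc39a1, at -0.50 (SE 0.212, unadjusted p = 0.036).

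The upstream sequences of Mt1 and Mt2 are shown because these genes had lower values together in Nlrx1-/- hosts of both transduced lines and are known for metal response elements, the sites of the zinc-sensing factor MTF1. They are the 250 bases before the RefSeq starts on GRCm38.p6, chr8:94178839-94179088 for Mt1 and chr8:94172368-94172617 for Mt2, both on the plus strand. Capitals mark matches to TGCACNC or TGCGCNC on either strand.
Mt1: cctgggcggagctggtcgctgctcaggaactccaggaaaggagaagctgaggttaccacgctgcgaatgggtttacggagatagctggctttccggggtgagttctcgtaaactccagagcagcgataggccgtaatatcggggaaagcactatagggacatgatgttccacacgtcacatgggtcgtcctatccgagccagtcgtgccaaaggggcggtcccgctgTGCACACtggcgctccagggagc
Mt2: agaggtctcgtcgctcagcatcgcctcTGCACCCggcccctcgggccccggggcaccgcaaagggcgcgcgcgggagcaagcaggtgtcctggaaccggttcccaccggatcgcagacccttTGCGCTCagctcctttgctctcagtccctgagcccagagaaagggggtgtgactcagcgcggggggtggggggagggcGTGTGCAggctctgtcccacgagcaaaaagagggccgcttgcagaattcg
Mt1 held 1 match, 23 bases before the start, and Mt2 held 3, at 223, 128 and 50 bases. The motif was present in 21.4% of all 32851 windows and in 5 of 12 genes of the metallothionein and zinc list with a window.

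Selenop encodes selenoprotein P, a secreted selenium carrier that macrophages also express. In WT hosts it was 11.90 and 12.95 in parental, 14.67 and 13.85 in 4T1OE, and 10.93 and 11.56 in 4T1OE-CTL tumours. In Nlrx1-/- hosts it was 12.995 in parental (12.999 on the array left out), 15.69 and 14.93 in 4T1OE, and 13.38 and 12.42 in 4T1OE-CTL tumours. Every Nlrx1-/- array lay above both WT arrays of its line, as for 162 features (0.73%) in this direction. Over all lines the groups overlapped. Means were 12.64 ± 1.43 (SD, n = 6) and 13.88 ± 1.37 (n = 5). The difference was 1.16 (SE 0.3, 95% interval 0.50 to 1.81, unadjusted p = 0.00233), with 0.57, 1.65 and 1.05 in parental, 4T1OE-CTL and 4T1OE tumours, and 1.09 with all 12 arrays. It was 0.80 without the 2 Nlrx1-/- arrays high in lymphoid genes and 0.72 without the 4 arrays of a standard deviation under 3. Of 26 selenoprotein and antioxidant genes, 2 were lower and 1 higher at an unadjusted p under 0.05 (2.68% and 1.62% of all features). The quinone reductase gene Nqo1 differed by -0.44 (SE 0.169, unadjusted p = 0.024) and the selenoprotein P receptor gene Lrp8 by -0.62 (SE 0.26, unadjusted p = 0.0354).

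Satb1, a chromatin organiser of lymphocytes, had the highest difference of the 10 higher genes. It was 5.40 to 6.42 on the WT arrays with a median of 5.95. On the Nlrx1-/- arrays it was 6.76 in parental, 8.66 and 6.55 in 4T1OE, and 10.54 and 7.07 in 4T1OE-CTL tumours, with 7.15 on the array left out. No WT array reached an Nlrx1-/- array, and the difference was 1.87 (SE 0.567, unadjusted p = 0.00647). The highest values were those of the 2 Nlrx1-/- arrays high in lymphoid genes, and without them the difference was 0.86 (adjusted p = 0.9992). Likewise highest on those arrays were B3gnt5, a glycosyltransferase gene of glycosphingolipid synthesis (1.37, and 0.63 without them), and Atp2a3, the calcium pump of haematopoietic cells (0.92, and 0.42 without them).

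Other higher genes kept most of their difference without those arrays. Lbp, which encodes the lipopolysaccharide binding protein, differed by 0.88 (SE 0.246, unadjusted p = 0.00396), and by 0.84 without them. Slc6a2, the noradrenaline transporter gene, differed by 1.05 (SE 0.264, unadjusted p = 0.00182), and by 0.95 without them. F13a1, the coagulation factor XIII A subunit of macrophages and platelets, differed by 1.03 (SE 0.336, unadjusted p = 0.00998). Over all 12 arrays Slc6a2 differed by 0.69 (unadjusted p = 0.101) and F13a1 by 0.42 (unadjusted p = 0.497). Without the 4 arrays of a standard deviation under 3, F13a1 differed by 0.66. Lyz1 differed by 1.01 (SE 0.285, unadjusted p = 0.00405), and its close paralogue Lyz2 by 1.03 (SE 0.34, unadjusted p = 0.0107). Probes of these 2 lysozyme genes may share signal, which was not tested. The apolipoprotein gene Apoa4 differed by 0.84 (SE 0.261, unadjusted p = 0.00752) and the autophagy gene Rubcnl by 0.78 (SE 0.237, unadjusted p = 0.00629). Apoa4 was 0.53 without the 3 arrays high in muscle genes, and Rubcnl 0.50 without the 2 high in lymphoid genes. The WT medians of Lbp (5.52), Apoa4 (5.57) and B3gnt5 (5.56) lay near the negative control medians of WT arrays, at 5.26 to 5.64. The sizes given for these genes may therefore be only bounds.

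**Figure D3:**
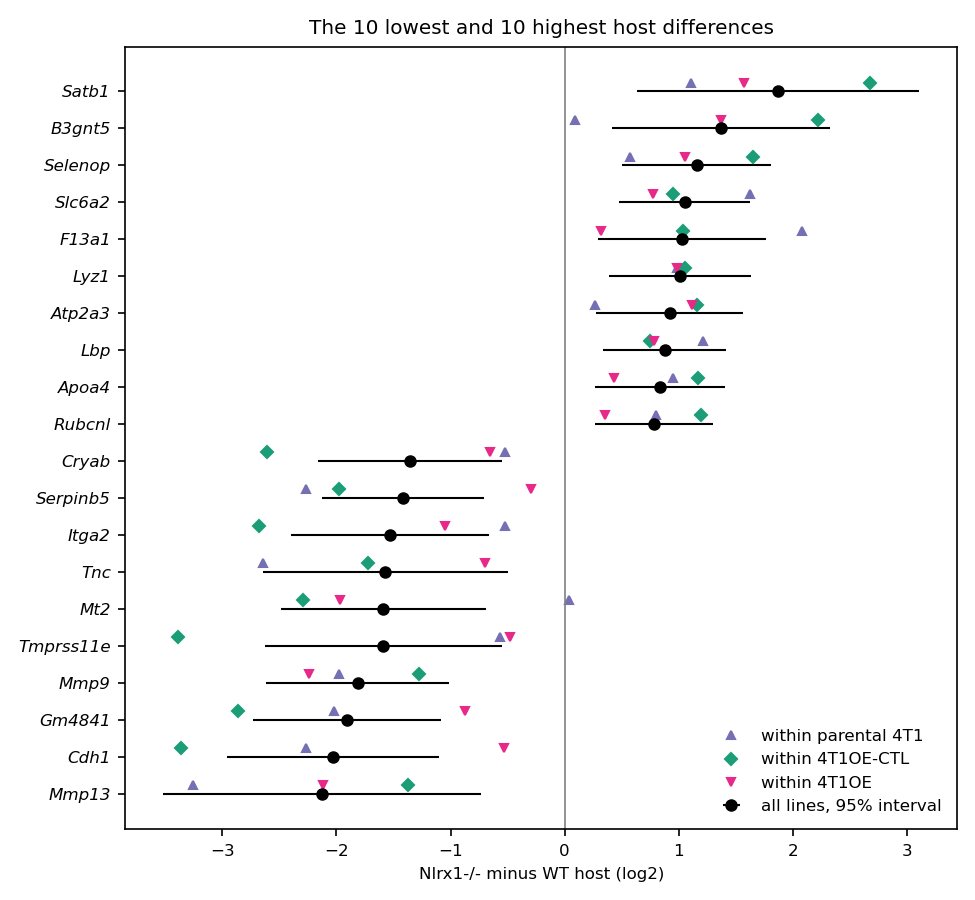
Host differences (log2, Nlrx1-/- minus WT) of the 10 lowest and 10 highest genes above the median level with an unadjusted p under 0.01. Black points are line-adjusted differences with 95% intervals over 11 arrays, and coloured symbols are the differences within each line. Differences in 4T1OE-CTL tumours lie furthest from 0 for 6 of the 10 lower and 7 of the 10 higher genes, and Mt2 alone has a difference on the other side of 0, at 0.04 in parental tumours.

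Of the 40 gene lists, the cell cycle genes had the lowest median difference. Of 26 such genes measured, 25 had a difference below 0 (49.3% of all features did). At an unadjusted p under 0.05, 14 were lower, where 2.68% of all features were. The median was -0.70, and -0.65 with all 12 arrays. Kif11, a spindle motor, differed by -1.01 (SE 0.229, unadjusted p = 0.000874), the checkpoint kinase gene Bub1 by -1.10 (SE 0.251, unadjusted p = 0.000949), the cytokinesis motor gene Kif20a by -1.11 (SE 0.299, unadjusted p = 0.00292) and the proliferation marker Mki67 by -0.98 (SE 0.279, unadjusted p = 0.00434). Mki67 was 14.12 and 14.39 in WT and 12.09 in Nlrx1-/- hosts in parental tumours, and 15.79 and 15.88 against 15.63 and 15.47 in 4T1OE tumours. The list differed far more in parental tumours (median -1.75) than in 4T1OE-CTL (-0.64) or 4T1OE tumours (0.04). Its deviation was -2.20 on the fitted Nlrx1-/- parental array, and the other arrays ran from -0.80 to 0.91. Without that array the median was -0.36 and 6 of 26 genes were lower at an unadjusted p under 0.05, and without the 4 arrays of a standard deviation under 3 it was -0.61 with 7. On the parental array left out the deviation was -1.22.

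The upstream sequences of Kif11 and Mki67 are shown because they had low values together and many mitotic genes carry the cell cycle homology region, the element TTTGAA bound by the DREAM and MuvB complexes. They are the 150 bases before the RefSeq starts on GRCm38.p6, chr19:37376232-37376381 on the plus strand for Kif11 and chr7:135716380-135716529 on the minus strand for Mki67. Capitals mark TTTGAA on either strand.
Kif11: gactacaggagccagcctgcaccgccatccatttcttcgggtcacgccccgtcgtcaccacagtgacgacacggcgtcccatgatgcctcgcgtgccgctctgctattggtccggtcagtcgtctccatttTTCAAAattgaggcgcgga
Mki67: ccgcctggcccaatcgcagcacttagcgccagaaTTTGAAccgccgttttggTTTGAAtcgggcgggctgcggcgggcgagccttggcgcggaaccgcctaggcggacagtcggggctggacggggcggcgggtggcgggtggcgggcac
Kif11 held 1 match, 19 bases before the start, and Mki67 held 2, at 116 and 98 bases. The element was present in 16.0% of all 32851 windows and in 8 of 22 cell cycle genes with a window.

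Antigen presentation and interferon gamma response genes had the lowest median of the immune lists. Of 30 measured, 28 had a difference below 0 (49.3% of all features did), 10 were lower (2.68% of all features) and 0 higher at an unadjusted p under 0.05, and the median was -0.47. The class I gene H2-Q4 differed by -0.66 (SE 0.165, unadjusted p = 0.00169), the guanylate-binding protein genes Gbp3 by -1.17 (SE 0.309, unadjusted p = 0.00269) and Gbp2 by -1.22 (SE 0.359, unadjusted p = 0.00527), and the immunoproteasome subunit gene Psmb9 by -0.80 (SE 0.249, unadjusted p = 0.00745). Gbp2 was 16.51 and 15.14 in WT against 13.44 and 14.11 in Nlrx1-/- hosts in 4T1OE-CTL tumours, and overlapped in 4T1OE tumours, at 14.21 and 14.62 against 13.70 and 14.71. The list median was -1.06 in parental, -0.72 in 4T1OE-CTL and 0.15 in 4T1OE tumours. Without the fitted Nlrx1-/- parental array it was -0.26 with 6 genes lower at an unadjusted p under 0.05, and without the 4 arrays of a standard deviation under 3 it was -0.25 with 1. Of 33 type I interferon response genes, 3 were lower at an unadjusted p under 0.05 (Rsad2, Oasl2 and Bst2), where 2.68% of all features were. Their list median was -0.22, or -0.01 without the fitted Nlrx1-/- parental array. Rsad2 was below the negative control median on all 5 Nlrx1-/- arrays. Of 18 immune checkpoint genes 11 were below 0 and 7 above, with a median of -0.15. At an unadjusted p under 0.05, 2 of them were lower and 1 higher. Among the lower was the checkpoint ligand gene Cd274, at -0.79 (SE 0.241, unadjusted p = 0.00689).

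**Figure D4:**
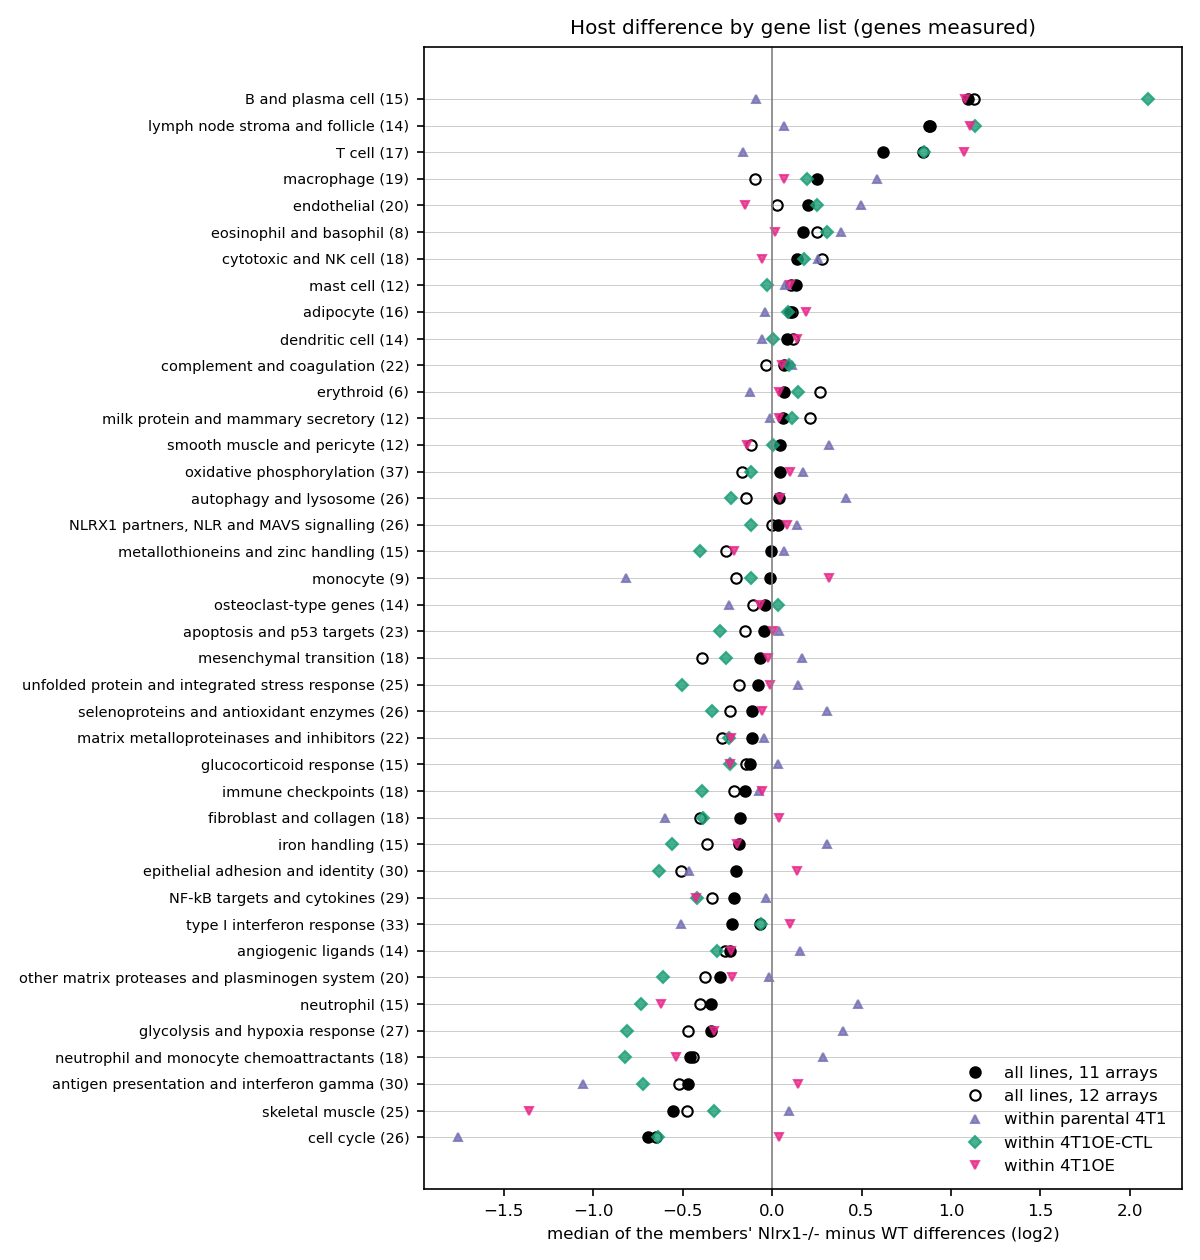
Median host difference (log2, Nlrx1-/- minus WT) of the members of 40 gene lists, with the number of genes measured in brackets. Filled circles are over 11 arrays, open circles over 12, and coloured symbols are medians within each line. B and plasma cell genes have the highest median (1.10) and cell cycle genes the lowest (-0.70), and neither keeps its place in every line.

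Lymphoid lists were high in Nlrx1-/- hosts through 2 fitted arrays. B and plasma cell genes had a median difference of 1.10, and 6 of 15 were higher and 1 lower at an unadjusted p under 0.05 (1.62% of all features were higher). The lower one was Sdc1, a syndecan that epithelial cells also carry. Their deviation was 2.37 on the first Nlrx1-/- replicate of 4T1OE and 3.59 on that of 4T1OE-CTL, and -0.18 to 0.26 on all other fitted arrays. Cd79a, a subunit of the B cell receptor, was 9.72 and 11.23 on those 2 arrays, 8.01 on the array left out, and below the negative control median on the 9 other fitted arrays. Jchain, the joining chain of secreted immunoglobulin, was likewise below it on 9 of 11 fitted arrays. The lymph node genes Cxcl13, a follicle chemokine, at 14.04 and 15.18, and Glycam1, at 12.75 and 12.93, were high on the same 2 arrays, and on the array left out at 12.83 and 13.16. Without the 2 arrays the B and plasma cell median was -0.04 with 0 genes higher at an unadjusted p under 0.05, the T cell median went from 0.62 to -0.04, and the lymph node median from 0.88 to 0.16. All 3 pools in question were Nlrx1-/- first replicates. No WT array was high in the B and plasma cell list, but some T cell genes were high on the second WT replicate of 4T1OE-CTL, among them the T cell receptor subunit gene Cd3g (8.39, against 6.34 on the array left out) and Cd8a (8.27, against 8.09).

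Skeletal muscle genes had a median of -0.55, with 23 of 25 below 0 (49.3% of all features were). None of them (0) passed an unadjusted p of 0.05, where 4.3% of all features did. Their deviation was 3.10 and 1.62 on the first WT replicates of 4T1OE and 4T1OE-CTL and 1.97 on the second Nlrx1-/- replicate of 4T1OE-CTL. Without the first WT replicate of 4T1OE the median was -0.03. Without all 3 arrays high in these genes it was -0.05.

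**Figure D5:**
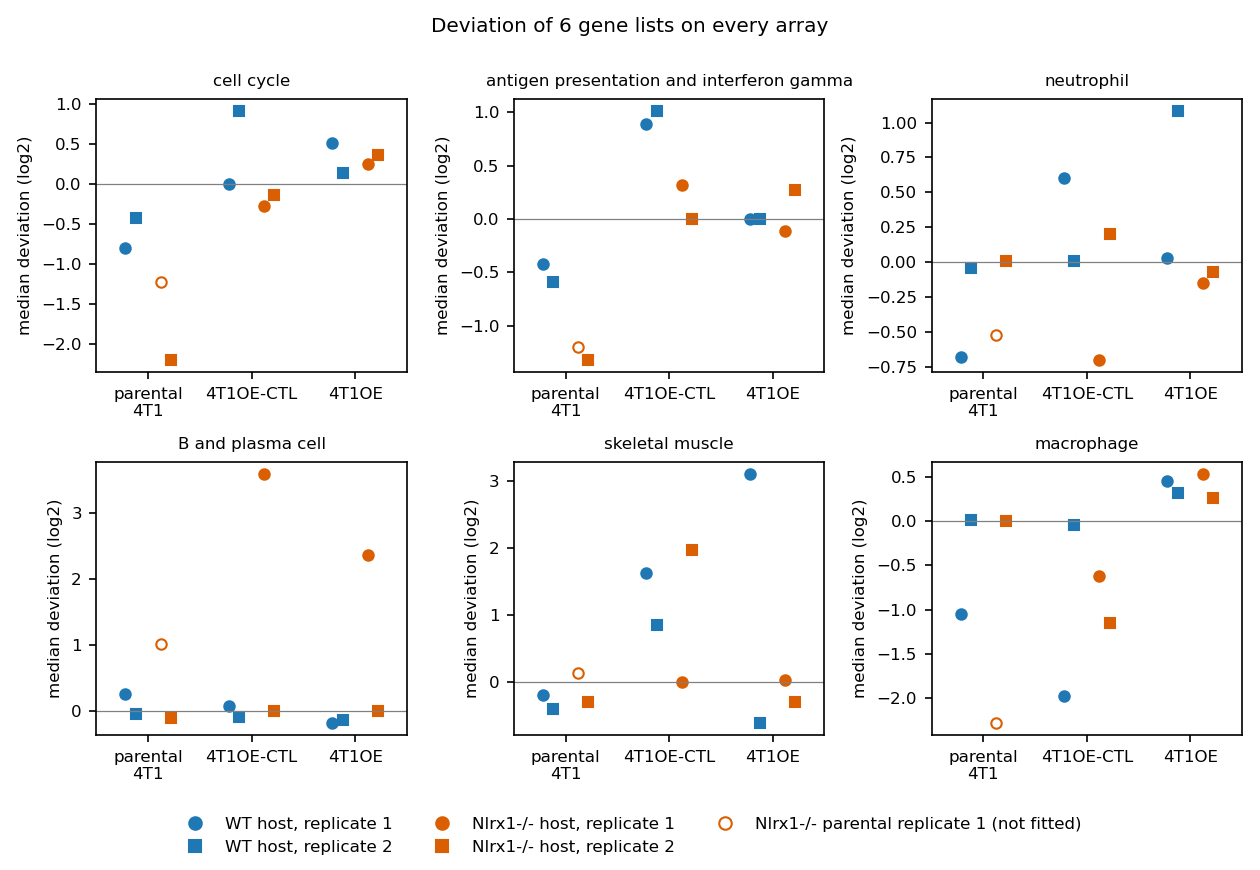
Deviation of 6 gene lists on each of 12 arrays, by injected line and host, as the median over a list's genes of its distance in log2 from that gene's median on the 11 arrays fitted. Circles are replicate 1, squares replicate 2, and the open circle is the array left out. The cell cycle list is lowest on the fitted Nlrx1-/- parental array (-2.20), and the B and plasma cell list is high on the first Nlrx1-/- replicates of 4T1OE-CTL (3.59) and 4T1OE (2.37).

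Neutrophil genes had differences below 0 for all 15 members measured (49.3% of all features did), with a median of -0.34. Of the 15, 4 lay below the negative control median on every fitted array, so the signs of those 4 carry no weight. Only Retnlg (1 of 15) had an unadjusted p under 0.05, where 2.68% of all features were lower. Retnlg, a resistin-like gene of neutrophils, differed by -1.97 (SE 0.695, unadjusted p = 0.0153), with -2.79 in 4T1OE-CTL, -2.82 in 4T1OE and 0.54 in parental tumours. The alarmin genes S100a8 and S100a9 differed by -1.62 (SE 0.981, unadjusted p = 0.124) and -1.35 (SE 0.962, unadjusted p = 0.186). The list median was 0.48 in parental and -0.73 and -0.62 in 4T1OE-CTL and 4T1OE tumours. Of 18 neutrophil and monocyte chemoattractants 15 were below 0 and the median was -0.46. Cxcl2 differed by -1.56 (SE 0.701, unadjusted p = 0.0458) and Cxcl3 by -0.54 (SE 0.213, unadjusted p = 0.0262), both ligands of the neutrophil receptor Cxcr2. Without the first Nlrx1-/- replicate of 4T1OE-CTL the neutrophil median was -0.13 and the chemoattractant median -0.28. Without the fitted Nlrx1-/- parental array they were -0.57, with 5 genes lower at an unadjusted p under 0.05, and -0.77, with 3.

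Of 19 macrophage genes 15 had a difference above 0 and 4 below (49.3% of all features were below 0), with 16 above 0 in parental tumours. Lyz2 was the only one with an unadjusted p under 0.05, where 1.62% of all features were higher. The list median was 0.25 over 11 arrays but -0.09 over all 12, and it ran from -0.004 to 0.42 as each fitted array was left out. The receptor gene Csf1r differed by 0.31 (SE 0.33, unadjusted p = 0.361) and Adgre1, a macrophage surface receptor gene, by 0.26 (SE 0.305, unadjusted p = 0.419). Of 9 monocyte genes 6 were below 0 and the median was -0.01. At an unadjusted p under 0.05, 1 was lower and 1 higher (2.68% and 1.62% of all features). The lower one was the proteoglycan gene Vcan, at -0.94 (SE 0.275, unadjusted p = 0.00539), and the higher one F13a1.

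Of 29 NF-kB targets and cytokines, 4 were lower at an unadjusted p under 0.05, where 2.68% of all features were. They included the cytokine gene Lif at -1.17 (SE 0.376, unadjusted p = 0.00931) and the feedback inhibitor gene Tnfaip3 at -0.94 (SE 0.312, unadjusted p = 0.011). Tnfaip3 differed by -0.81 in parental and -0.96 in 4T1OE tumours. The NF-kB list median was -0.21, or -0.47 without the fitted Nlrx1-/- parental array and -0.10 without the 4 arrays of a standard deviation under 3. Of 27 glycolysis and hypoxia genes 25 were below 0 (49.3% of all features were). At an unadjusted p under 0.05, 3 of them were lower (2.68% of all features). The list median was -0.34, with 0.40 in parental, -0.81 in 4T1OE-CTL and -0.32 in 4T1OE tumours. Slc2a1, the glucose transporter GLUT1 gene, differed by -1.03 (SE 0.428, unadjusted p = 0.0333). Without the 2 Nlrx1-/- arrays high in lymphoid genes the list median was -0.13 and 0 of its genes were lower at an unadjusted p under 0.05, whereas without the fitted Nlrx1-/- parental array it was -0.58 with 10 lower. Of 23 apoptosis and p53 target genes 14 were below 0 and 9 above, with a median of -0.05. At an unadjusted p under 0.05, 2 of them were lower and 0 higher. One was Cdkn1a, which encodes the cell cycle inhibitor p21, at -1.29 (SE 0.373, unadjusted p = 0.00487).

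Genes of NLRX1's own signalling neighbourhood went both ways. Of 26 NLR, MAVS and partner genes measured, 12 had a difference below 0 and 14 above, and the median was 0.03. At an unadjusted p under 0.05, 2 were lower (2.68% of all features) and 0 higher. Of the 26, 5 lay below the negative control median on every fitted array. Nlrp3, the inflammasome sensor gene, differed by -0.65 (SE 0.212, unadjusted p = 0.0104) and Cgas, the cytosolic DNA sensor gene, by -0.59 (SE 0.226, unadjusted p = 0.0234). For both, every Nlrx1-/- array lay below both WT arrays of its line, as for 205 features (0.923%). The mitochondrial elongation factor gene Tufm, whose product binds NLRX1, differed by 0.33 (SE 0.267, unadjusted p = 0.246). Oxidative phosphorylation genes had a median of 0.04 over 37 members with 0 past an unadjusted p of 0.05, and autophagy and lysosome genes a median of 0.04 over 26 members with 0. Over all 12 arrays these medians were -0.17 and -0.15.

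Within single lines 0 features were called as well (limma, adjusted p under 0.05, 1 mean per group). Standard deviations within an array were 2.914 and 2.776 on the Nlrx1-/- arrays of 4T1OE-CTL tumours, against 2.885 and 3.073 on the WT arrays. The part of array spread in the counts of that line was not tested. At an unadjusted p under 0.05 it had 2121 features, but 1242 with array weights and 1169 from its arrays alone. For 4T1OE tumours these settings gave 887 and 843, against 194. In the main fit the smallest adjusted p in 4T1OE-CTL tumours was 0.1249. There 1396 features (6.29%) were lower and 725 (3.26%) higher in Nlrx1-/- hosts at an unadjusted p under 0.05. In 4T1OE tumours these counts were 122 (0.549%) and 72 (0.324%), and in parental tumours, with a single Nlrx1-/- array assumed to vary like the others, 540 (2.43%) and 504 (2.27%). The test of whether the host difference itself differed between lines called 0 of 22206 features (0%), with 1025 (4.62%) at an unadjusted p under 0.05 and a smallest adjusted p of 0.9989. In 4T1OE-CTL tumours Prss22, a serine protease gene chosen after its values were seen, differed by -3.59 (adjusted p = 0.2522), and had an adjusted p of 0.02334 when either WT parental array was left out.

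Among genes above the median level, the 6 with the smallest interaction p were Kctd15, Angpt2, Rab25, Cxcl9, Fzd2 and Ttc9 (unadjusted p of 0.000105 to 0.000469, adjusted p = 0.9989). Angpt2, the angiopoietin 2 ligand of vessels, differed by 2.98 in parental and by -0.23 and -0.78 in 4T1OE-CTL and 4T1OE tumours. On the parental array left out Angpt2 was 6.92, against 7.43 and 7.88 in WT and 10.63 on the fitted Nlrx1-/- array. Cxcl9, an interferon gamma-induced chemokine, was 10.37 and 11.16 in WT and 6.52 in Nlrx1-/- hosts in parental tumours, and 12.29 on the array left out. Rab25, an epithelial trafficking GTPase gene, was 9.53 and 9.01 against 6.31, and 7.54 on the array left out. Fzd2, a Wnt receptor gene, was 9.61 and 9.77 against 7.87 and 7.23 in 4T1OE-CTL tumours. For Angpt2, Rab25, Cxcl9 and Ttc9 the line furthest from 0 was the parental one, with 1 fitted Nlrx1-/- array. For Angpt2 and Cxcl9 the array left out lay on the other side of both WT arrays.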

How the data were processed

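RNA pooled from 4T1 tumours was hybridised to 12 Clariom S mouse arrays. The authors deposited 1 log2 value per transcript cluster and array, made with the Transcriptome Analysis Console per the submitters' processing notes. Neither its version nor the normalization method and genome build are stated in the sources used here. A value on this scale has no read depth, and the number of arrays limits the precision. Values were used without further scaling. The 6640 control features (prefixes MG-1, AFFX and ERCC) were removed, leaving 22206, of which 19572 had 1 gene symbol and 2634 none. A gene's feature of highest mean stood for it. A manufacturer's control sample had an empty column.

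Models were run in limma (version 3.58.1, R version 4.3.3, moderated two-sided tests, Benjamini-Hochberg over all features tested). An additive model of tumour line and host gave the host difference, and a model with 1 mean per group gave differences within lines and their interaction. The scripts were tested on simulated data. A gene under an array's median of negative control features was taken as not above background there. Named genes were the 10 highest and 10 lowest differences among genes above the median feature's mean and past an unadjusted p of 0.01. Also named were 5 marker genes and Nlrx1, and up to 4 members of smallest p of each list described. The 6 genes of smallest interaction p were taken among genes above the median feature's mean. A few further list members were named for their role, after their values were seen. The members and the 40 gene lists (742 of 815 genes measured) were chosen with earlier results of these data known. Upstream sequences came from RefSeq on GRCm38.p6, which held 8 of 11 genes looked up. Alternatives were all 12 arrays, quantile normalization, a filter on the dimmest 33.3%, an intensity trend with a robust prior, array weights, the replicate number as a block, the array standard deviation as a covariate, 1 mean per group averaged over lines, the arrays of 1 line alone, an unadjusted p under 0.05 with a fold of 2, and each array left out in turn. Leaving out the arrays high in lymphoid or in muscle genes or of a standard deviation under 3, and fitting the transduced lines alone, were added after seeing the data.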

Additional observations from a re-analysis of the deposited data

Results flagged for a closer look

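Within each host group, named genes and list deviations were searched for 1 array far from the rest (the gap to its nearest neighbour as a share of the group's range). Of 134 groups searched 16 held such an array, where chance gives about 1 in 20.

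Among genes, the second WT replicate of 4T1OE-CTL stood apart from the other WT arrays for Mmp9 (7.83) and Apoa4 (6.12). The second Nlrx1-/- replicate of 4T1OE-CTL stood apart for Apoa4 (7.78). The fitted Nlrx1-/- parental array stood apart for Cxcl9 (6.52).

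Among lists, the fitted Nlrx1-/- parental array stood apart with deviations of -2.20 for cell cycle, -1.32 for antigen presentation and interferon gamma and -0.27 for osteoclast-type genes. The first Nlrx1-/- replicate of 4T1OE-CTL stood apart for the metalloproteinase list (-0.72) and for glycolysis and hypoxia (-0.79). The second stood apart for mast cell genes (1.84), skeletal muscle (1.97) and apoptosis and p53 targets (-0.56). Of the WT arrays, the first parental replicate stood apart for selenoproteins and antioxidant enzymes (-0.67) and for the unfolded protein and integrated stress response (-0.36). The first 4T1OE-CTL replicate stood apart for eosinophil and basophil genes (0.26) and milk protein genes (0.43).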

How the results depend on the processing

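Over all lines the count of called features was 0 under each alternative run, except for a threshold without adjustment and 1 array left out. An unadjusted p under 0.05 with a fold of 2 or more gave 102 features, 34 of them higher. Leaving out 1 array at a time gave 0 to 1 calls over all lines (Mmp9 without the second WT replicate of 4T1OE-CTL), 0 to 1 within 4T1OE-CTL (Prss22 without either WT parental array), and 0 within parental, 0 within 4T1OE and 0 for the interaction. The parental comparison and the interaction could not be fitted without the remaining Nlrx1-/- parental array. The Nlrx1 difference ran from -0.228 to 0.103 as arrays were left out and turned above 0 in 4 cases (0.103, 0.052, 0.06 and 0.004). A block for the replicate number gave 0 called features in each comparison, and 1054 at an unadjusted p under 0.05 over all lines. Correlations of same-numbered deviations between groups ran from -0.309 to 0.371, and 2 of 10 passed 0.1. Those were 0.363 between WT parental and WT 4T1OE-CTL, and 0.371 between Nlrx1-/- 4T1OE and Nlrx1-/- 4T1OE-CTL. They cannot show whether the numbers pair any of the samples.

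None of the 20 named genes passed the adjusted threshold to begin with, so staying on one side of it says nothing about stability, and sizes moved: Tmprss11e to -0.49 without the arrays of a standard deviation under 3, F13a1 to 0.42 over 12 arrays and Satb1 to 0.86 without the lymphoid-high arrays. Of 960 list medians 9 moved by more than the list's median SE, among them epithelial (-0.51) and mesenchymal transition genes (-0.39) over 12 arrays, skeletal muscle with array weights (-1.21), eosinophil genes without the dimmest features (-0.60) and cell cycle in the transduced lines alone (-0.36). With 2 pools or fewer per group, differences near the median SE of 0.209 were not detectable here. Far larger ones were not called in the main fits either, such as -2.03 for Cdh1 over all lines and -3.59 for Prss22 within 4T1OE-CTL tumours.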

Other observations

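Several genes of cholesterol synthesis had differences below 0, none of which passed adjustment. Fdps, which encodes farnesyl diphosphate synthase, and Sc5d, a sterol desaturase gene, were both among the 23 features lower without overlap between hosts, and the pathway list was written after these values had been seen, so no test is given for it. Fdps was 7.34 to 7.85 on the WT arrays, and on the Nlrx1-/- arrays 6.87 in parental, 7.28 and 7.31 in 4T1OE, and 6.81 and 4.90 in 4T1OE-CTL tumours, with 5.85 on the array left out. The difference was -0.95 (SE 0.309). Sc5d was 11.72 to 12.26 on the WT arrays, against 11.32 in parental, 11.70 and 11.68 in 4T1OE, and 10.63 and 11.09 in 4T1OE-CTL tumours of Nlrx1-/- hosts, a difference of -0.67 (SE 0.201).

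Of 25 sterol synthesis and SREBP2 target genes named, 19 were measured. Of these, which include Fdps and Sc5d, 17 had a difference below 0 (49.3% of all features did). At an unadjusted p under 0.05, 11 were lower and 0 higher (2.68% and 1.62% of all features). These counts only describe a list chosen for this pattern. The median was -0.51, with -0.65 in parental, -0.94 in 4T1OE-CTL and -0.16 in 4T1OE tumours, where 7 of the 19 were above 0. Msmo1, a sterol oxidase gene, differed by -1.17 (SE 0.337), Sqle, which encodes squalene epoxidase, by -0.90 (SE 0.243), and Hmgcs1, an early enzyme gene of the pathway, by -0.86 (SE 0.224). The mevalonate kinase gene Mvk (0.03) and Mvd (0.05) lay near 0. The median was -0.45 and 7 genes were lower without the fitted Nlrx1-/- parental array, -0.53 and 11 without the 2 arrays high in lymphoid genes, and -0.33 and 6 without the 4 arrays of a standard deviation under 3. With the standard deviation within an array as a covariate it was -0.53 with 10 lower, both over the 11 and over all 12 arrays. The list was chosen from these same arrays, so the values under these settings add no support to it.

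Among the 23 features (0.104%) separated without overlap in the other direction, Cmah, which makes the sialic acid Neu5Gc, differed by 1.59. The natural killer receptor gene Ncr1 was also among them, but lay below the negative control median on every WT array. On the fitted Nlrx1-/- arrays it was 5.03 to 5.67, near their negative control medians of 5.24 to 5.68, so no size is given for it.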
